A study of Schizosaccharomyces pombe with 78 samples.

Results

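The first G1/S peak of Nrm1-SA cells was compared with that of Nrm1 cells in the fission yeast *Schizosaccharomyces pombe*, at 60 and 80 min after release from a G2 block. The comparison took the 8 libraries labelled with these strains and times, 2 of Nrm1-SA and 2 of Nrm1 at each time, from the 78 libraries of the series, and set the strains against each other within each time point. Nrm1-SA cells carry nrm1-SA-HA, in which 11 CDK1 consensus sites of Nrm1 are replaced by alanine, and Nrm1 cells carry wild-type Nrm1 with the same HA tag. All cells also carry *cdc25-22*, a temperature-sensitive allele of the phosphatase that starts mitosis. They were grown in minimal medium, held at the restrictive temperature and released into the cycle by cooling. Asynchronous cultures of both strains, with 2 libraries each, served as a second point of comparison. RNA was selected for polyA, and the values are normalized counts, that is, reads per feature divided by a size factor of the library. The methods call the replicates biological duplicates. A single strain was sequenced for each genotype, so any other difference between the strains cannot be told apart from the changes in Nrm1.

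MBF is the transcription factor that drives G1/S genes in fission yeast. It holds Cdc10, Res1 and Res2, binds the MCB element ACGCGT, and turns on genes for replication licensing, deoxynucleotide supply, replication and chromosome cohesion. Nrm1 and Yox1 are corepressors that bind MBF and are themselves products of MBF genes, which makes a negative feedback. In *cdc25-22* cultures the first G1/S wave comes while the cells divide, because fission yeast passes G1 and enters S phase around septation.

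The MCB element was looked for upstream of the genes. In the 300 bases before the annotated start of each gene (RefSeq annotation of ASM294v3, taken by matching gene IDs, since the deposited table holds no coordinates), ACGCGT was present in 8 of 20 MBF targets (40.0%) and in 148 of 5112 protein-coding genes (2.90%). The shorter core ACGCG, read on either strand and contained in ACGCGT, was present in 14 of the 20 (70.0%) and in 543 of the 5112 (10.6%). Shown here are the windows of the 4 MBF targets that were furthest below Nrm1 at 60 min in Nrm1-SA, among those with a core and with no other coding gene in the window, and the window of *cdc22*, the most abundant of these targets. Each is written 5′ to 3′ on the strand of the gene, and capitals mark ACGCG on either strand. The windows lie at chrII:477092-477391 (plus strand) for *cdt1*, chrI:2035705-2036004 (minus) for *cdt2*, chrII:1647932-1648231 (plus) for *yox1*, chrII:2217985-2218284 (minus) for *cdc18* and chrI:4226670-4226969 (plus) for *cdc22*.
cdt1: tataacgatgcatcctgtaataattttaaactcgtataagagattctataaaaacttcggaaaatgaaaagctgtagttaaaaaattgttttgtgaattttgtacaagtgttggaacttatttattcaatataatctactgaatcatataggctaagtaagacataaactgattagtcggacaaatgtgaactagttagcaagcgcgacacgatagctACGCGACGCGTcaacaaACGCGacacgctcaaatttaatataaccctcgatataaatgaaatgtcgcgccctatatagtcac
cdt2: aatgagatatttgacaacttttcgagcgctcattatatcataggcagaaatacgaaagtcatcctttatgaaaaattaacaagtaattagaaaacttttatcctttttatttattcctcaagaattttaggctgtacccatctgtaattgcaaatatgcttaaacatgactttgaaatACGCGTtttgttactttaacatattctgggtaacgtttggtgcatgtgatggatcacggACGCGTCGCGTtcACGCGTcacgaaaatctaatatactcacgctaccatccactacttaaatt
yox1: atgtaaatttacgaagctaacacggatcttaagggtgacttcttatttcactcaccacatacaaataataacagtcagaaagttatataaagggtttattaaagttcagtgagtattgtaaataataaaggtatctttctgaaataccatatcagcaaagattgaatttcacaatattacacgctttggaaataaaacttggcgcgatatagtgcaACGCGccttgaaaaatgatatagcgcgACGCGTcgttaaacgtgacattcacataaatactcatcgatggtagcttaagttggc
cdc18: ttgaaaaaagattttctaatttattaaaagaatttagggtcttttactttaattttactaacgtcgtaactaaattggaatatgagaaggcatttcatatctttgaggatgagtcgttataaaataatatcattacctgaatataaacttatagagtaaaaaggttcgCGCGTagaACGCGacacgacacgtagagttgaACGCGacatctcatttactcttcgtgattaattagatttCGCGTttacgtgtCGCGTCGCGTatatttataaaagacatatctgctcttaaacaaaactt
cdc22: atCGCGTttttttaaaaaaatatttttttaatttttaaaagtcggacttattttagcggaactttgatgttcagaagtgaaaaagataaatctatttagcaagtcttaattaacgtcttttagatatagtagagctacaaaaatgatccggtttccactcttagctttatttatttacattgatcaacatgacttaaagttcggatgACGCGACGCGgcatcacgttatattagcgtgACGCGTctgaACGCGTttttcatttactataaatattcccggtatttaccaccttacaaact
The *cdt2* window held 3 copies of ACGCGT, that of *cdc22* held 2, and those of *cdt1* and *yox1* held 1 each. The *cdc18* window held no ACGCGT but 6 copies of the core. The window of *mik1*, whose difference at 60 min was larger than that of *cdc18*, held neither and is not shown. That window, chrII:220998-221297, overlaps another coding gene model. The *ssb1* window, chrII:221299-221598 on the other strand, lies within the annotated *mik1* model and held 3 copies of ACGCGT. The empty window therefore does not show that *mik1* lacks the element. ACGCGT was found in 27 of 365 windows of protein-coding genes lower in Nrm1-SA at 60 min (7.40%), in 17 of 604 of those higher (2.81%) and in 90 of 3651 of those not called at either time (2.47%). At 80 min it was found in 22 of 399 windows of lower genes (5.51%) and 10 of 367 of higher genes (2.72%). The 8 MBF targets with ACGCGT were all called lower at both times. They are counted among the 27 and the 22, so these shares do not describe lower genes outside the list. Such a match is a description of the letters in the window and was not tested.

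The libraries held 4213763 to 8246403 reads on annotated features, and these extremes were Nrm1-SA replicates 1 and 2 at 80 min. The differences below are Nrm1-SA minus Nrm1 on the scale log2(normalized count + 1), so that -1 is a 2-fold lower level, and a feature was called where the p-value of limma, adjusted over all 7431 features tested by the Benjamini-Hochberg method, was under 0.1. At 60 min, 454 features were lower in Nrm1-SA (6.11% of those tested) and 664 were higher (8.94%). At 80 min, 485 were lower (6.53%) and 448 higher (6.03%), and with each library scaled to its total reads (CPM) in place of the deposited size factors this split became 635 lower and 322 higher. Both times shared 283 of the lower features (3.81% of those tested), which were 62.3% of those lower at 60 min and 58.4% of those lower at 80 min. They shared 237 of the higher features (3.19%), which were 35.7% and 52.9% of the higher ones at 60 and 80 min. Most differences were small: 57 of the lower and 74 of the higher features at 60 min, and 48 and 61 at 80 min, reached 2-fold. Leaving out 1 library left 247 to 304 lower and 339 to 406 higher features at 60 min, and 263 to 505 lower and 221 to 310 higher ones at 80 min.

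**Figure D1:**
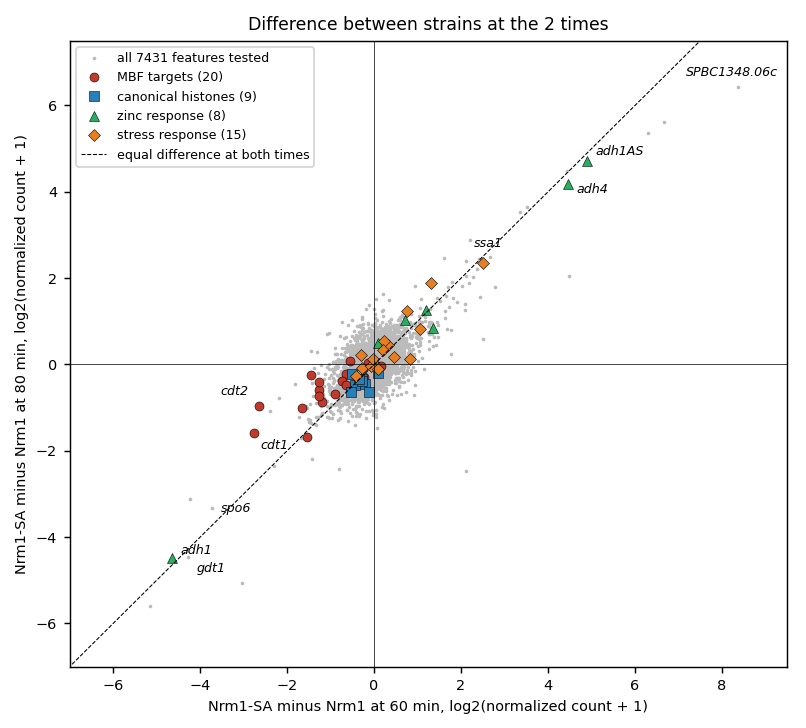
Difference between Nrm1-SA and Nrm1 at 60 min (x axis) and at 80 min (y axis), both on the scale log2(normalized count + 1), for all 7431 features tested, with 4 gene lists marked and the dashed line at equal differences. Most MBF targets lie below 0 on both axes, and *cdt2*, at -2.64 and -0.96, lies above the dashed line, while *adh1* at -4.66 and -4.50 and *adh4* at 4.46 and 4.17 lie close to it.

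MBF targets were lower in Nrm1-SA at both times. Of the 20 MBF targets, 18 were lower at 60 min and 15 at 80 min, against 6.11% and 6.53% of all features, none was higher, and the 15 lower at 80 min were all lower at 60 min as well. Their median difference was -0.81 at 60 min and -0.46 at 80 min, against 0.01 and -0.00 over all features tested. *mcl1*, which encodes a polymerase alpha accessory factor, and *slm9*, which encodes a HIR histone chaperone subunit, were not called at either time, with differences between -0.04 and 0.17. Without Nrm1-SA replicate 2, 11 MBF targets were called at 80 min, and 16 were called at 60 min whichever replicate was left out. The list includes *nrm1* and *yox1* themselves.

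*cdt1* and *cdt2* had the largest differences of the list at 60 min. *cdt1*, whose product loads the MCM helicase together with Cdc18, had 299 and 341 normalized counts in Nrm1-SA at 60 min, against 2043 and 2302 in Nrm1. At 80 min it had 179 and 154 in Nrm1-SA, against 506 and 504 in Nrm1. Neither time showed overlap between strains, and the level in Nrm1-SA was 6.77-fold lower at 60 min (difference -2.76 ± 0.11 SE, adjusted p = 1.12e-26) and 3.03-fold lower at 80 min (-1.60 ± 0.11, adjusted p = 2.57e-16). *cdc18*, the MCM loader itself, had 965 and 995 normalized counts in Nrm1-SA at 60 min, against 2666 and 2734 in Nrm1 (difference -1.46, adjusted p = 2.14e-25). At 80 min it had 1003 and 915 in Nrm1-SA, against 1179.5 and 1097 in Nrm1, and the difference shrank to -0.25 (adjusted p = 0.00532). The 80 min call for *cdc18* was lost without Nrm1-SA replicate 2 (adjusted p = 0.172) or Nrm1 replicate 1 (adjusted p = 0.135). *cdt2*, which encodes the substrate receptor that takes Cdt1 and Spd1 to destruction in S phase, had 243 and 320.2 normalized counts in Nrm1-SA at 60 min, against 1733 and 1753 in Nrm1 (difference -2.64, adjusted p = 1.12e-26). At 80 min *cdt2* had 364 and 320.4 in Nrm1-SA, against 695 and 634 in Nrm1 (difference -0.96, adjusted p = 9.29e-10).

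Genes of deoxynucleotide supply were split. *cdc22*, the large subunit of ribonucleotide reductase, had 11499.6 and 11803 normalized counts in Nrm1-SA at 60 min, against 26631 and 26761 in Nrm1, and 11733 and 10221 in Nrm1-SA at 80 min, against 20409.8 and 19471 in Nrm1. The level was 2.29-fold lower at 60 min (adjusted p = 4.68e-17) and 1.82-fold lower at 80 min (adjusted p = 9.06e-12). *suc22*, the small subunit of the same enzyme, had 2201 and 2249 normalized counts in Nrm1-SA at 60 min, against 2434 and 2438 in Nrm1, a difference of -0.13 with an adjusted p of 0.0993, and at 80 min it differed by 0.02. Of the 6 genes of deoxynucleotide supply, 3 were lower at 60 min and 1 at 80 min, against 6.11% and 6.53% of all features. The other lower gene at 60 min was *dut1*, the enzyme that removes dUTP, with a difference of -0.51 at 60 min and -0.10 at 80 min. The call for *suc22* was lost whichever replicate was left out, with adjusted p between 0.204 and 0.36.

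The corepressor genes were lower too. *yox1* had 283 and 303 normalized counts in Nrm1-SA at 60 min, against 913 and 930.3 in Nrm1, and 379 and 399.9 in Nrm1-SA at 80 min, against 804 and 770.0 in Nrm1 (differences -1.65 and -1.01, adjusted p = 1.79e-18 and 1.03e-10). *nrm1* itself had 665 and 685 normalized counts in Nrm1-SA at 60 min, against 1262 and 1251 in Nrm1, and 698 and 539 in Nrm1-SA at 80 min, against 973 and 1012 in Nrm1. The *nrm1* differences were -0.90 (adjusted p = 8.43e-07) and -0.69 (adjusted p = 0.000126). The counts measure the amount of *nrm1* RNA and do not show the alanine changes, so they do not check the genotype. SPNCRNA.6524, a noncoding RNA annotated across the start of *nrm1* on the other strand and named after its values were seen, went the other way, with 157 and 142 normalized counts in Nrm1-SA at 60 min, against 71.9 and 54.5 in Nrm1 (difference 1.24, adjusted p = 1.88e-07). Whether counting used strand is not given in the sources used here, so reads of overlapping opposite genes may not be fully separated.

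Of the 7 MBF subunits and co-regulators, 3 were lower at 60 min, 2 at 80 min and none was higher. Over all features, 6.11% were lower at 60 min and 6.53% at 80 min. The list of 7 also holds *nrm1* and *yox1*. *cdc10*, the subunit common to MBF, had 382 and 395 normalized counts in Nrm1-SA at 60 min, against 609 and 570.4 in Nrm1 (difference -0.60, adjusted p = 4.03e-08), while at 80 min the values were 566 and 479 in Nrm1-SA, against 575 and 604 in Nrm1 (-0.18, adjusted p = 0.149). The DNA-binding subunits *res1* and *res2* and the activators *rep1* and *rep2* were not called at either time. Their differences lay between -0.17 and 0.22, which is less than those of most MBF targets.

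The other MBF targets covered transcription, the cell cycle and repair. *tos4*, a regulator with a forkhead-associated domain, had 5949.9 and 6255 normalized counts in Nrm1-SA at 60 min, against 14841 and 14433 in Nrm1 (difference -1.26, adjusted p = 3.58e-21). *ams2*, the GATA factor that drives histone genes in S phase, had 813 and 898 in Nrm1-SA at 60 min, against 2097 and 2048 in Nrm1 (-1.28, adjusted p = 7.68e-14). *ctp1*, which encodes the nuclease cofactor that starts resection of DNA breaks, had 251 and 259.7 in Nrm1-SA, against 651 and 589.7 in Nrm1 (-1.28, adjusted p = 2.78e-17). In all of these the strains did not overlap, and at 80 min the differences were -0.73, -0.60 and -0.40. *mik1*, which encodes an inhibitory kinase of Cdc2, had 454 and 481 normalized counts in Nrm1-SA at 60 min, against 1381 and 1329.9 in Nrm1, and 199.8 and 152 in Nrm1-SA at 80 min, against 617 and 505 in Nrm1. Its differences were -1.53 and -1.67, and the test of the change between the times gave an adjusted p of 0.982. *cig2*, the S-phase cyclin, had 1433 and 1767 in Nrm1-SA at 60 min, against 2365 and 2299 in Nrm1 (-0.55, adjusted p = 1.44e-05), and at 80 min the strains overlapped, with 1680.2 and 1896 in Nrm1-SA, against 1709 and 1679 in Nrm1. Lesser falls at 60 min were measured for *ssb1*, the large subunit of replication protein A (-0.64), *mrc1*, the checkpoint mediator claspin (-0.73), *rad21*, the cohesin kleisin (-0.64), *msh6*, a mismatch repair protein (-0.53), *pol1*, the catalytic subunit of polymerase alpha (-0.41), and *eso1*, the cohesin acetyltransferase (-0.24). At 80 min the calls for *mrc1* (adjusted p = 0.121), *pol1* (0.213) and *eso1* (0.305) were lost without Nrm1-SA replicate 2, and that for *eso1* also without Nrm1 replicate 1 (0.146) or 2 (0.141). The call for *eso1* at 60 min was lost whichever replicate was left out, with adjusted p up to 0.358.

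**Figure D2:**
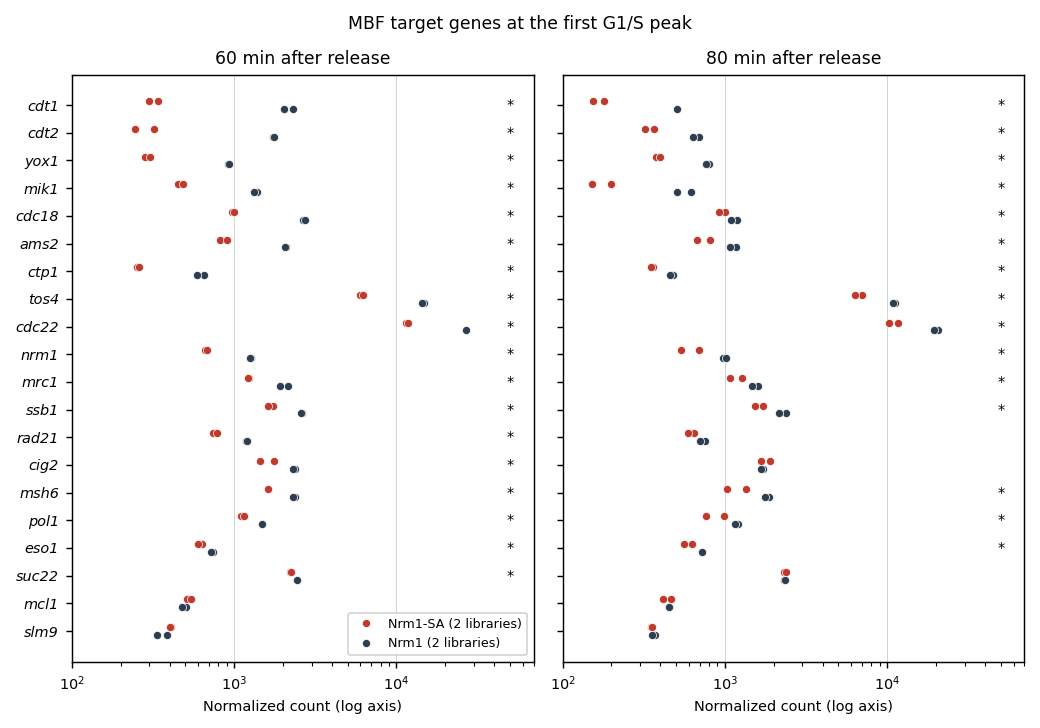
Normalized count (log axis) of the 20 MBF targets in each of the 2 Nrm1-SA libraries (red) and the 2 Nrm1 libraries (dark) at 60 min (left) and 80 min (right), with genes ordered by their difference at 60 min and an asterisk where the adjusted p is under 0.1. At 60 min 18 of the 20 genes are called lower, against 6.11% of all features. At 80 min the strains lie closer for several genes. There the Nrm1 values of *cdc18* are 1179.5 and 1097, and those of Nrm1-SA are 1003 and 915.

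Between 60 and 80 min the difference between strains changed for 23 features: it became less negative or more positive for 15 (0.202% of those tested) and moved the other way for 8 (0.108%). Of the 15, 8 were MBF targets, so 8 of 20 targets passed a test that 0.202% of all features passed in this direction. The change was 1.68 for *cdt2* (adjusted p = 5.83e-12), 1.21 for *cdc18* (7.55e-15), 1.16 for *cdt1* (2.2e-06) and 0.88 for *ctp1* (2.9e-06) on the log2 scale. In Nrm1-SA, *cdc18* stood at 965 and 995 normalized counts at 60 min and at 1003 and 915 at 80 min, whereas in Nrm1 it stood at 2666 and 2734 at 60 min and at 1179.5 and 1097 at 80 min. *rev1*, which encodes a translesion polymerase and is not on the list, had 125 and 136 normalized counts in Nrm1-SA at 60 min, against 329 and 313 in Nrm1, and 127 and 110.2 in Nrm1-SA at 80 min, against 139 and 131 in Nrm1 (change 1.10, adjusted p = 0.00147). The other way went *cdc2*, the cyclin-dependent kinase, with 413 and 415 in Nrm1-SA at 60 min, against 336 and 317 in Nrm1, and 369 and 379 in Nrm1-SA at 80 min, against 419.7 and 436 in Nrm1 (change -0.53, adjusted p = 0.00919). Likewise *prz1*, the transcription factor activated by calcineurin, changed by -0.62 (adjusted p = 0.00146), although its call at 60 min was lost without Nrm1-SA replicate 2 (0.205) or Nrm1 replicate 1 (0.215). Leaving out 1 replicate left 6 to 10 features in the first direction and 2 to 12 in the other, with 6 and 2 without Nrm1 replicate 2. *bst1*, which remodels GPI anchors, changed by -0.58 (adjusted p = 0.0512), and SPCC737.04, of unknown function, by -1.03 (adjusted p = 0.0081).

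Features called in opposite directions at the 2 times numbered 4 (0.0538% of those tested), namely *rad54*, *prz1*, *ppk38* and SPAC186.03, of which *rad54* and *ppk38* were chosen for naming after their values were seen. *rad54*, a recombination ATPase, had 339.9 and 323 normalized counts in Nrm1-SA at 60 min, against 389 and 397 in Nrm1, and 397 and 388 in Nrm1-SA at 80 min, against 335 and 330.0 in Nrm1. SPAC186.03, annotated as an L-asparaginase, was near the floor of the libraries, with 2.48 and 4.38 in Nrm1-SA and 0 in both Nrm1 libraries at 60 min, and under 2 in both Nrm1-SA libraries at 80 min, against 9.45 and 15.4 in Nrm1. No fold is given for it, its call at 60 min was lost without Nrm1-SA replicate 2 (adjusted p = 0.125), and it shares 96.3% identity with another gene, so its reads may be split between copies.

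The other lists of S-phase genes held fewer calls. Of 21 genes of origin licensing and firing, none was lower and 1 was higher at 60 min, and 1 was lower and 2 were higher at 80 min, close to the shares of all features. Those at 80 min were *dfp1*, the regulatory subunit of the Hsk1 kinase, which was lower, and *mcm6* and *cdc23*, the Mcm10 homologue, which were higher. The higher gene at 60 min was *mcm6*, a helicase subunit, with 375 and 403 normalized counts in Nrm1-SA, against 293 and 278 in Nrm1 (difference 0.45, adjusted p = 0.000175), and its 5 fellow MCM subunits were not called. Of 25 genes of the replication fork, 5 were lower and none higher at each time, against 6.11% lower at 60 min and 6.53% at 80 min over all features. They included *ssb1* and *pol1*, which are MBF targets, and *cdc20*, the catalytic subunit of polymerase epsilon (differences -0.42 and -0.33), with *dpb3* and *rfc4* at 60 min and *spp2* and *pcn1* at 80 min. Of 9 cohesin genes, 5 were lower at 60 min (*rad21*, *psm1*, *psm3*, *eso1* and *pds5*) and 2 at 80 min (*psm3* and *eso1*), against 6.11% and 6.53% of all features. *psm3*, a cohesin ATPase subunit, had 871 and 848 in Nrm1-SA at 60 min, against 1683 and 1634 in Nrm1 (-0.95, adjusted p = 2.24e-11), and *pds5*, a cohesin regulator, differed by -0.40 (adjusted p = 0.00327). Of 22 repair and checkpoint genes, 5 were lower and 1 higher at 60 min, against 6.11% and 8.94% of all features, and 3 were lower and 1 higher at 80 min, against 6.53% and 6.03%. The single higher genes are no more than these shares give. Those lower at 60 min included *mrc1*, *rad54*, *ctp1* and *mre11*, and at 80 min *mrc1*, *ctp1* and *mre11* were lower and *rad54* was higher. *crb2*, a checkpoint mediator, was higher at 60 min by 0.41 (adjusted p = 0.0035). The call for *mcm6* at 80 min was lost without Nrm1-SA replicate 1 (adjusted p = 0.21) or Nrm1 replicate 1 (0.136), and those for *cdc20* and *psm3* at 80 min without Nrm1-SA replicate 2 (0.259 and 0.436) or Nrm1 replicate 1 (0.266 and 0.227). The call for *pds5* at 60 min was lost without Nrm1-SA replicate 1 (0.151).

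Of the 9 canonical histone genes, 5 were lower in Nrm1-SA at 60 min and 7 at 80 min, against 6.11% and 6.53% of all features, none was higher, and the median difference was -0.29 at 60 min and -0.37 at 80 min. *hhf2*, a histone H4 gene, had 1310.3 and 1413 normalized counts in Nrm1-SA at 60 min, against 1487 and 1480.3 in Nrm1 (difference -0.12, adjusted p = 0.493), and 2202 and 2409.8 in Nrm1-SA at 80 min, against 3548 and 3665 in Nrm1 (-0.65, adjusted p = 1.53e-06). *hhf3*, another H4 gene, had 2448 and 2551 in Nrm1-SA at 80 min, against 3813 and 3952 in Nrm1 (-0.64, adjusted p = 0.00974). *htb1*, the only H2B gene, had 5448 and 5171 in Nrm1-SA at 80 min, against 6575 and 6879 in Nrm1 (-0.34, adjusted p = 0.0336), and *hht1*, an H3 gene, differed by -0.48 (adjusted p = 0.0169). *hhf3* shares 93.0% of its bases with *hhf1* and 91.4% with *hhf2* over the aligned stretch, and *hht1* shares 92.8% with *hht3*, so reads may be split between copies. At 60 min the calls for *hta1*, *htb1*, *hht1* and *hhf3* were lost without Nrm1-SA replicate 1 (adjusted p = 0.214, 0.42, 0.209 and 0.238). Without Nrm1 replicate 2 the 60 min calls for *htb1* (0.167), *hht1* (0.222) and *hhf3* (0.255) and the 80 min calls for *htb1* (0.232) and *hht1* (0.181) were lost, and that for *htb1* at 80 min was also lost without Nrm1-SA replicate 2 (0.192) or Nrm1 replicate 1 (0.116).

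Genes of mitosis and septation, which mark how far the cultures had gone, differed by less than 0.1 in mean level. Averaged over 14 mitotic genes, the level at 60 min was 9.49 in Nrm1-SA, against 9.41 in Nrm1 (mean of log2(normalized count + 1), 2 cultures each), and at 80 min it was 8.79, against 8.75. Averaged over 16 genes of septation and cell separation, the level was 10.87 in Nrm1-SA at 60 min, against 10.84 in Nrm1, and 10.49 at 80 min, against 10.56. The single cultures of the strains overlapped in these means except for the mitotic genes at 60 min. At 80 min the 2 Nrm1-SA cultures lay further apart than the 2 Nrm1 cultures. For the mitotic genes they stood at 8.938 and 8.645, against 8.793 and 8.7 in Nrm1. For the septation genes they stood at 10.636 and 10.345, against 10.587 and 10.538 in Nrm1. limma called no septation gene at either time, nor did edgeR or DESeq2, and 0 of the 16 at 60 min and 1 at 80 min had an unadjusted p under 0.05. Of the mitotic genes, *cut7*, a kinesin-5, was higher at 60 min (0.29, adjusted p = 0.0477), and *slp1*, an activator of the anaphase-promoting complex, was higher at 80 min, with 1279 and 1065 normalized counts in Nrm1-SA, against 831 and 674 in Nrm1 (0.64, adjusted p = 0.00183). The other mitotic gene higher at 80 min was *plo1*, the polo kinase (0.33). Both lists reached their highest mean level of the first cycle at 60 min in both strains, and the septation genes stood 0.33 higher in Nrm1-SA at 100 min. The MBF targets averaged 9.84 in Nrm1-SA at 60 min, against 10.82 in Nrm1, and at 100 min the order was turned, with 9.59 in Nrm1-SA, against 9.38 in Nrm1. The part of cell cycle position in the differences at 80 min was not tested. The call for *cut7* was lost whichever replicate was left out, with adjusted p between 0.102 and 0.262.

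**Figure D3:**
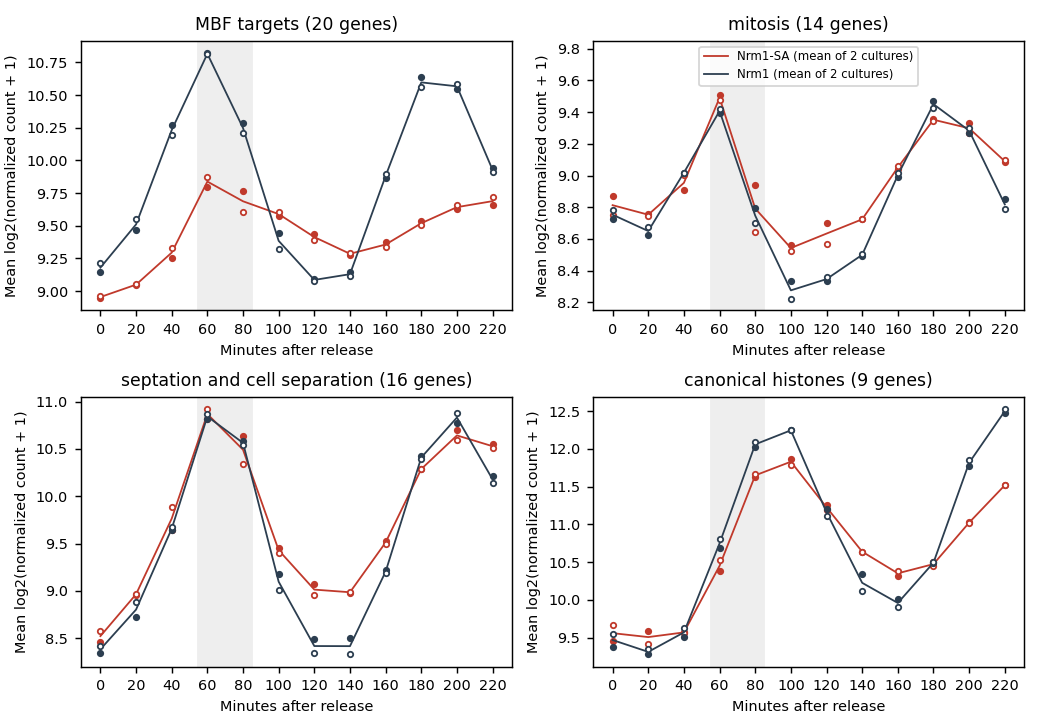
Mean log2(normalized count + 1) of 4 gene lists at 0 to 220 min after release in Nrm1-SA (red) and Nrm1 (dark), with lines at the mean of 2 cultures, filled and open points for the single cultures and grey shading around 60 and 80 min. Mitotic and septation genes peak together at 60 min in both strains, whereas the MBF targets of Nrm1-SA stand at 9.84, against 10.82 in Nrm1.

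Cyclins, Cdc2 and their regulators moved both ways at 60 min, with 3 of 11 genes lower and 4 higher, against 6.11% and 8.94% of all features. *cig1*, a B-type cyclin, had 256 and 249 normalized counts in Nrm1-SA, against 162 and 163 in Nrm1 (0.63, adjusted p = 3.11e-06). The other higher genes were *cdc2* (0.34), *cdc25* (0.44) and *wee1*, the kinase that restrains Cdc2 (0.38). The lower ones were *mik1* and *cig2*, both on the MBF target list, and *srw1*, an activator of the anaphase-promoting complex in G1 (-0.35). The paper describes *srw1* as regulated by MBF, although it is not on the list used here. At 80 min 1 gene was lower, *mik1*, and 1 higher, *slp1*, near the shares of all features (6.53% lower and 6.03% higher). The mitotic cyclin *cdc13* differed by 0.11 and 0.08 and was not called.

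Meiotic genes are kept low in growing cells. Of 7 tested meiotic genes of recombination and cohesion, 2 were lower at 60 min and 3 at 80 min. Over all features, 6.11% and 6.53% were lower at these times. The third gene at 80 min was *rec12*, which makes meiotic breaks. *rec11*, a meiotic cohesin subunit, had 119 and 101 normalized counts in Nrm1-SA at 60 min, against 194 and 191 in Nrm1 (-0.80, adjusted p = 0.0647), and *dmc1*, a meiotic recombinase, had 23.9 and 26.3 in Nrm1-SA, against 52.4 and 48 in Nrm1 (-0.97, adjusted p = 0.0438). Both calls at 60 min were lost whichever replicate was left out, with adjusted p up to 0.344 for *rec11* and 0.209 for *dmc1*, and at 80 min without Nrm1-SA replicate 2 (0.179 and 0.355) or Nrm1 replicate 1 (0.416 and 0.15). The 80 min call for *rec11* was also lost without Nrm1-SA replicate 1 (0.133), and that for *dmc1* without Nrm1 replicate 2 (0.225). The call for *rec12* at 80 min was kept only without Nrm1-SA replicate 1, and its adjusted p reached 0.257. *spo6*, which encodes the regulatory subunit of a meiotic kinase and was among the largest falls outside the lists, had 15.7 and 28.4 normalized counts in Nrm1-SA at 60 min, against 303 and 281 in Nrm1, and 30.1 and 36 in Nrm1-SA at 80 min, against 366 and 311 in Nrm1. The differences of *spo6* were -3.72 (adjusted p = 1.51e-15) and -3.32 (adjusted p = 2.47e-13). *spo6* rose and fell over time in Nrm1, with 7.34 and 5.25 at 0 min, 64.2 and 70.2 at 140 min and 220 and 213 at 200 min. In Nrm1-SA it had 8.86 and 10.6 at 0 min, 49.3 and 52.3 at 140 min and 22.0 and 23.4 at 200 min.

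Large differences at abundant genes lay in the zinc response. In fission yeast the repressor Loz1 keeps *adh4* and the antisense RNA *adh1AS* off when zinc is plentiful, and *adh1AS* lowers *adh1*. *adh1*, the main alcohol dehydrogenase, had 1396 and 1152 normalized counts in Nrm1-SA at 60 min, against 33031 and 31014 in Nrm1, and 1319 and 1309 in Nrm1-SA at 80 min, against 30296 and 29071 in Nrm1. The level in Nrm1-SA was 25.2-fold lower at 60 min (adjusted p = 5.46e-29) and 22.6-fold lower at 80 min (adjusted p = 2.81e-28). *adh4*, a second alcohol dehydrogenase, had 41165 and 44833 in Nrm1-SA at 60 min, against 1832 and 2089 in Nrm1, and 42318 and 43183 in Nrm1-SA at 80 min, against 2202 and 2548 in Nrm1. It was 21.9-fold higher at 60 min (adjusted p = 1.76e-16) and 18.0-fold higher at 80 min (adjusted p = 5.94e-15). *adh1AS* had 29409.5 and 26021 in Nrm1-SA at 60 min, against 924 and 936 in Nrm1 (29.7-fold, adjusted p = 7.21e-13). *adh1AS* is annotated at chrIII:1590025-1593983 on the minus strand and spans *adh1*, at chrIII:1591292-1592889 on the plus strand, so reads of the pair are told apart only if the counting used strand. Of the 8 zinc genes, 5 were higher and 1 lower at 60 min, against 8.94% and 6.11% of all features, and 6 were higher and 1 lower at 80 min, against 6.03% and 6.53%. *zrt1*, the plasma membrane zinc transporter, had 9407 and 8928 in Nrm1-SA at 60 min, against 5957 and 5351 in Nrm1 (0.70), *fet4*, another metal transporter, differed by 1.20, and *zym1*, a metallothionein, was called at both times, with a difference of 0.84 at 80 min. *loz1* itself differed by 0.08 at 60 min and 0.50 at 80 min (adjusted p = 0.0336). The same pattern was present in asynchronous growth, where *adh1* had 3518 and 2639 in Nrm1-SA, against 31775 and 35336 in Nrm1, and *adh4* had 43349.9 and 42952 in Nrm1-SA, against 1522 and 1448 in Nrm1.

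Of 15 heat shock and stress genes, 6 were higher and 2 lower at 60 min, against 8.94% and 6.11% of all features, and 6 were higher and none lower at 80 min, against 6.03% and 6.53%, with 4 higher at both times (*ssa1*, *hsp16*, *hsp104* and *hsp9*). *ssa1*, an Hsp70 chaperone, had 597 and 439 normalized counts in Nrm1-SA at 60 min, against 84.6 and 95.1 in Nrm1, and 591 and 412 in Nrm1-SA at 80 min, against 99.2 and 91.7 in Nrm1 (differences 2.50 and 2.36, adjusted p = 1.95e-10 and 1.48e-09). *hsp16*, a small heat shock protein, differed by 1.31 and 1.88, *hsp104*, a disaggregase, by 1.06 and 0.83, and *hsp9*, a small stress protein, by 0.76 and 1.24. *hsp90* and *gpd1*, which makes the osmolyte glycerol, were the 2 lower genes at 60 min (-0.28 and -0.42). Outside the list, *ddr48*, a stress protein, had 349.8 and 378 in Nrm1-SA at 60 min, against 35.2 and 34.1 in Nrm1 (3.35, adjusted p = 3.11e-06), and *dak2*, a dihydroxyacetone kinase, had 1762 and 1526 in Nrm1-SA, against 341 and 274 in Nrm1 (2.42, adjusted p = 7.57e-07). *mug108*, of unknown function, differed by 2.66 and 2.50, *pma2*, a minor proton pump, by 2.37 and 2.22, and the esterase gene SPAPB1A11.02 by 2.12 and 2.40. At 60 min, *mug108* was not called without Nrm1-SA replicate 1 (adjusted p = 0.152) or Nrm1 replicate 2 (0.114), and *pma2* was not called without Nrm1-SA replicate 2 (0.139) or Nrm1 replicate 1 (0.224). At 80 min *mug108* was lost without Nrm1-SA replicate 1 (0.144), Nrm1-SA replicate 2 (0.102) or Nrm1 replicate 2 (0.111), and *pma2* without Nrm1-SA replicate 2 (0.151).

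Mating genes were mixed. Of 11 tested, 5 were higher and 1 lower at 60 min, against 8.94% and 6.11% of all features, and 3 were higher and 1 lower at 80 min, against 6.03% and 6.53%, so that the single lower gene is near the share of all features. *ste6*, the exchange factor for Ras1, had 244 and 193 normalized counts in Nrm1-SA at 60 min, against 606 and 661 in Nrm1 (-1.54, adjusted p = 1.1e-08), and 171 and 131 in Nrm1-SA at 80 min, against 290.2 and 309.8 in Nrm1 (adjusted p = 0.000123). *mfm2*, an M-factor pheromone gene, had 564 and 595 in Nrm1-SA at 60 min, against 249 and 228 in Nrm1 (1.28, adjusted p = 0.01), *mfm1*, which shares 93.1% of its bases with *mfm3* over the aligned stretch, differed by 2.09, and *ste11*, the regulator of mating genes, by 0.78. The other higher genes at 60 min were *mam1* and *mam3*, and those at 80 min were *mfm2*, *ste11* and *mei2*, an inducer of meiosis. At 60 min the call for *mfm1* was lost without Nrm1-SA replicate 1 (adjusted p = 0.183) or Nrm1 replicate 2 (0.134), and that for *ste11* without Nrm1-SA replicate 2 (0.245) or Nrm1 replicate 2 (0.137). At 80 min *ste11* was lost without Nrm1-SA replicate 2 (0.116) and *mfm2* without Nrm1 replicate 1 (0.106). Of 8 phosphate and iron genes tested, none was called at 60 min by limma, edgeR or DESeq2 (0 with an unadjusted p under 0.05) and 1, *fep1*, the iron-sensing repressor, was higher at 80 min (0.42, adjusted p = 0.0541), a call lost without Nrm1-SA replicate 2 (0.362), Nrm1 replicate 1 (0.153) or Nrm1 replicate 2 (0.288). Of 131 ribosomal protein genes, 3 were lower at 60 min (*rpl1603*, *rpl3002* and *rpl802*), and 1 was lower (*rpl1603*) and 1 higher (*rpl302*) at 80 min, all below the shares of all features (6.11% lower at 60 min, 6.53% lower and 6.03% higher at 80 min).

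**Figure D4:**
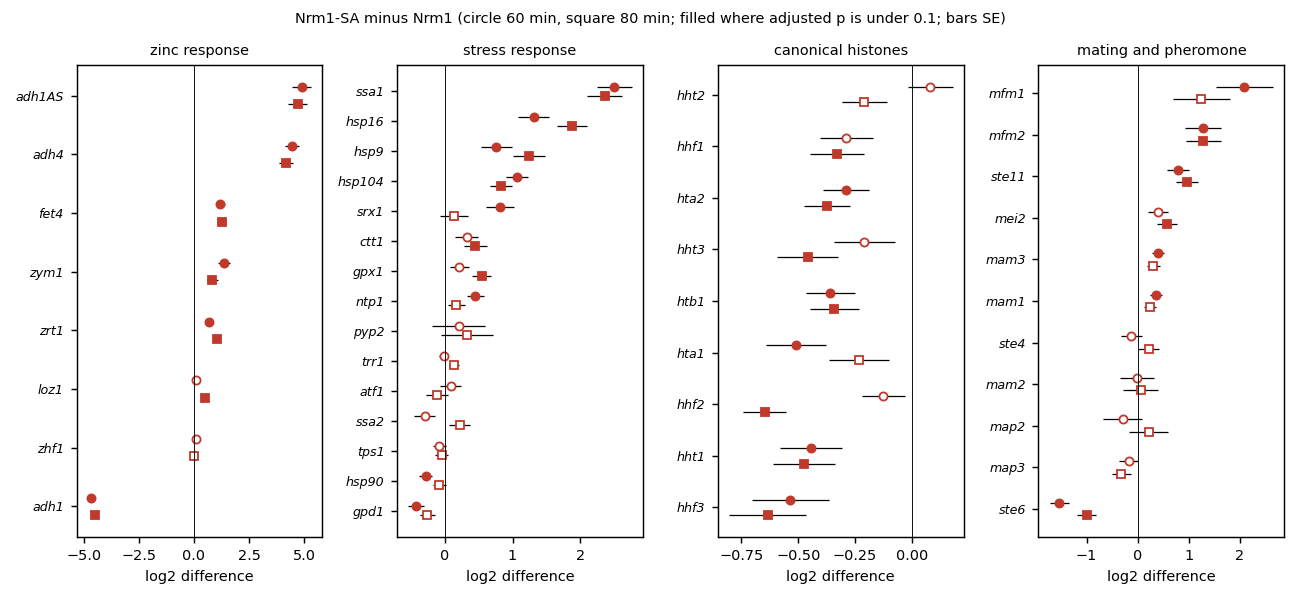
Difference between Nrm1-SA and Nrm1, on the scale log2(normalized count + 1), for the members of 4 lists at 60 min (circles) and 80 min (squares), with bars of 1 SE and filled symbols where the adjusted p is under 0.1. The zinc genes run from *adh1* at -4.66 to *adh1AS* at 4.89, and the histone genes lie within 0.65 of 0.

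Several of the named genes lie near chromosome ends. Of the features at least 2-fold lower at both times, 5 of 23 (21.7%) lay within 100 kb of an end of a chromosome in ASM294v3, and of those at least 2-fold higher 8 of 35 (22.9%), against 234 of 7412 tested features (3.16%). This count was chosen after the values were seen and was not tested. Next to each other on chromosome I, SPAC186.04c, *gdt1* and SPAC186.06 were all lower. *gdt1*, a GDT1-like membrane protein, had 39.6 and 37.2 normalized counts in Nrm1-SA at 60 min, against 784 and 737 in Nrm1 (difference -4.27, adjusted p = 1.89e-19), and 38.3 and 45.6 in Nrm1-SA at 80 min, against 941 and 931 in Nrm1. SPAC186.04c had 2.48 and 0.729 in Nrm1-SA at 60 min, against 53.2 and 37.8 in Nrm1, and SPAC186.06, annotated as an isomerase, had 1.65 and 3.65 in Nrm1-SA, against 39.7 and 19.4 in Nrm1. SPAC750.01, an aldo/keto reductase gene that is 92.7% like SPAC977.14c, had 6.6 and 9.48 in Nrm1-SA at 60 min, against 47.2 and 38.8 in Nrm1. The 3 protein-coding genes with the highest mean differences were SPBC1348.06c, SPBPB2B2.15 and SPAC977.05c, which encode Vel1p domain proteins and share at least 99.3% of their bases, so that reads may be split among them. SPAC977.05c had 1532 and 1234 in Nrm1-SA at 60 min, against 16.5 and 16.6 in Nrm1, SPBC1348.06c had 599.9 and 509.8 in Nrm1-SA, against 0 and 1.85 in Nrm1, and SPBPB2B2.15 had 491 and 439.8 in Nrm1-SA, against 4.49 and 2.77 in Nrm1.

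Long noncoding RNAs made up 70 of the features lower at 60 min and 59 of those higher, which is 2.90% and 2.45% of the 2411 tested, against 6.11% and 8.94% of all features. At 80 min they made up 74 and 81, again below the 6.53% and 6.03% of all features. Of those lower at both times, SPNCRNA.1548 had 192 and 201 normalized counts in Nrm1-SA at 60 min, against 611 and 696 in Nrm1 (-1.73, adjusted p = 3.65e-16). SPNCRNA.4043 had 0.825 and 0 in Nrm1-SA at 60 min, against 49.4 and 44.3 in Nrm1, and was listed at 0 in both Nrm1-SA libraries at 80 min, against 49.9 and 44.4 in Nrm1, and it is 96.5% like a stretch of SPAC27D7.09c. SPNCRNA.3335, SPNCRNA.687 and SPNCRNA.5234 differed by -1.69, -1.30 and -1.35 at 60 min, and the calls for SPNCRNA.5234 were lost whichever replicate was left out, with adjusted p up to 0.282 at 60 min and 0.397 at 80 min. Higher at both times were *adh1AS* and 2 RNAs antisense to *adh4*, SPNCRNA.2065 with 183 and 202 in Nrm1-SA at 60 min, against 9.73 and 6.46 in Nrm1, and SPNCRNA.2066 with 125 and 128, against 11.2 and 9.23. Both of these RNAs are annotated inside *adh4*, which had 41165 and 44833 in Nrm1-SA at 60 min, against 1832 and 2089 in Nrm1. Their reads and those of *adh4* may not be fully separated, which was not tested. SPNCRNA.4497 had 19.8 and 23.3 in Nrm1-SA, against 0 in both Nrm1 libraries, a call lost at 80 min without Nrm1-SA replicate 1 (adjusted p = 0.114) or Nrm1 replicate 2 (0.115). SPNCRNA.6641, which is 96.8% like part of *tlh1* and *tlh2*, had 16.5 and 15.3, against 3.74 and 1.85. Of the features tested, 91.6% overlap a feature annotated on the other strand.

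The difference at the peak was also set against the difference in asynchronous growth, with a test of the change. For 359 features (4.83%) the difference, averaged over 60 and 80 min, was lower than in asynchronous cultures, and for 195 (2.62%) it was higher. Long noncoding RNAs made up 187 of these lower features and 15 of the higher ones, which is 7.76% and 0.622% of those tested. Of the 20 MBF targets, 12 were among the lower and none among the higher, with a median change of -0.43. *cdt2* had 322 and 375 normalized counts in asynchronous Nrm1-SA, against 369 and 409 in asynchronous Nrm1, a difference of -0.16, and the change to the peak was -1.64 on the log2 scale (adjusted p = 1.45e-13). It was -1.14 for *yox1* (adjusted p = 2.89e-09), -0.91 for *cdt1* (2.92e-06) and -0.60 for *cdc18* (1.42e-07). *mik1* was already lower in asynchronous growth, with 77.4 and 96.1 in Nrm1-SA, against 268 and 339 in Nrm1, and its change to the peak was 0.19 (adjusted p = 0.654). *cdc22* differed by -0.76 in asynchronous growth (change -0.27, adjusted p = 0.107). The asynchronous Nrm1 replicate 2 was the shallowest library of the series, with 2685381 reads. Leaving out Nrm1-SA replicate 1, Nrm1-SA replicate 2, Nrm1 replicate 1 or Nrm1 replicate 2 gave 222, 193, 475 or 158 lower features, and 97, 141, 227 or 82 higher ones. edgeR called 116 lower and 114 higher features, and DESeq2 called 86 and 85, both without the asynchronous Nrm1-SA replicate 2, whose reads were not used in the count tests.

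Outside the MBF list the protein-coding genes with the largest change between peak and asynchronous growth were *fub2*, SPAC977.18, SPAC977.05c, *pfl9* and *spo6* in the lower direction. *fub2*, of the PI31 proteasome regulator family, had 359 and 483 normalized counts in Nrm1-SA at 60 min, against 955 and 1179 in Nrm1, but 22.3 and 30.3 in asynchronous Nrm1-SA, against 3.42 and 2.34 in asynchronous Nrm1 (change -4.10, adjusted p = 5.82e-09). *pfl9*, a cell surface glycoprotein gene, was higher in Nrm1-SA at both times (1.77 and 0.80) and in asynchronous growth (3.63), with a change of -2.34 (adjusted p = 2.15e-09). SPAC977.18, of unknown function and 98.1% like SPBPB2B2.18, was not called at 60 or 80 min and had 10.6 and 9.1 in asynchronous Nrm1-SA, against 2.56 and 0 in asynchronous Nrm1. In the higher direction were SPAC186.03, *ddr48*, *isp5*, SPBC23G7.13c and SPAPB1A11.02. *isp5*, an amino acid transporter, had 359 and 429.6 in Nrm1-SA at 60 min, against 142 and 142 in Nrm1, and 638 and 745 in asynchronous Nrm1-SA, against 1319 and 1322 in asynchronous Nrm1 (change 2.13, adjusted p = 3.94e-07). SPBC23G7.13c, a urea transporter gene, changed by 1.74 (adjusted p = 1.08e-06). *ddr48* changed by 2.96 (adjusted p = 0.00135), with 7819 and 7406 in asynchronous Nrm1-SA, against 10097 and 2938 in asynchronous Nrm1, where the replicates lay far apart. The difference of *fub2* at 60 min lost its call without Nrm1-SA replicate 1 (adjusted p = 0.155) or Nrm1 replicate 2 (0.139), and at 80 min without Nrm1-SA replicate 1 (0.171), Nrm1 replicate 1 (0.105) or Nrm1 replicate 2 (0.188). At 80 min *isp5* lost its call without Nrm1 replicate 2 (0.189), and SPBC23G7.13c without Nrm1-SA replicate 1 (0.175) or Nrm1 replicate 2 (0.217).

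**Figure D5:**
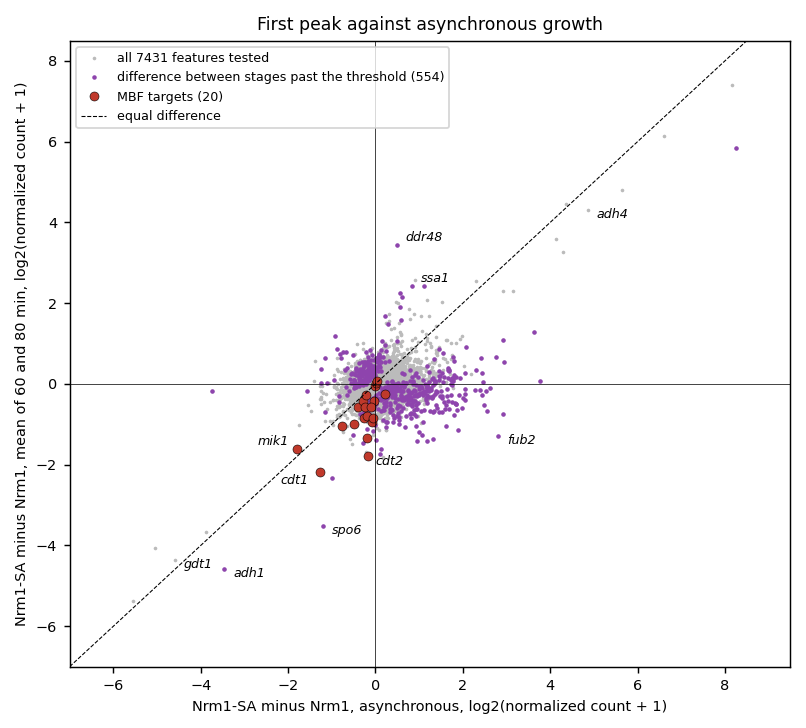
Difference between Nrm1-SA and Nrm1 in asynchronous growth (x axis) and averaged over 60 and 80 min (y axis), on the scale log2(normalized count + 1), for all 7431 features tested, with the 554 whose 2 differences differ by the test in purple, the MBF targets in red and the dashed line at equal differences. *cdt2* lies well below the line (-0.16 in asynchronous growth), and *mik1*, *adh4* and *gdt1* lie near it.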

How the data were processed

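Libraries were made with a directional kit after polyA selection. Per the labels and the methods, the authors ran FastQC and Trimmomatic, used STAR for alignment and HTSeq for counting, and scaled by DESeq2 size factors, and they deposited these normalized counts, a signal that is never negative, for 12683 features without coordinates. The labels name build ASM294v2, and whether counting used strand is not given in the sources used here. In all 78 libraries the values were whole multiples (within 0.001) of the smallest value above 0, taken as 1 read, which gave the reads per library. The count tests left out 4 libraries in which that value is close to 1.

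Features with a mean of at least 10 were tested on log2(normalized count + 1) with limma 3.58.1 (R 4.3.3), with a mean for each of 39 conditions and a spread estimated from all libraries. The 2 Nrm1-SA libraries of 140 min agreed within sampling noise, that is, differed by less than it (chi-square per degree of freedom 0.392, against 1.77 to 16.1 in other pairs) and entered as their mean, which left 77. The threshold of 0.1 is that of the study. edgeR 4.0.16 and DESeq2 1.42.0 were run on recovered reads of 73 libraries as alternatives, beside other pseudocounts (0.5 and 5), filters (none, and a mean of at least 50), scalings, sets of libraries, a replicate block, a culture effect, thresholds and each replicate left out. The tests were checked on simulated counts. There, 11.5% of the limma calls at 60 min and 4.83% at 80 min fell on unchanged features. limma recovered 61% of 1.5-fold changes at 60 min and 60% at 80 min, and 78% of 2-fold changes at both times. A feature that was not called may therefore still differ.

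Named genes were the MBF lists, the 10 protein-coding and 5 noncoding features with the largest mean difference in each direction among those called at both times without overlap, the 5 largest changes from 60 to 80 min in each direction, up to 4 genes of each other list with the smallest p at 60 min, and the 5 protein-coding genes with the largest change from asynchronous growth in each direction. Further genes are named, after their values were seen, where they make up a small count. A withheld item is not reported here. The members and lists were chosen with earlier results of these data known. In all, 12602 IDs matched ASM294v3, which gave names, overlaps and upstream sequence. Identity between copies was measured with blastn 2.17.0. Figures used matplotlib 3.10.9 under Python 3.11.15.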

Additional observations from a re-analysis of the deposited data

Results flagged for a closer look

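For 16 named genes the difference between Nrm1-SA and Nrm1 itself differed between 60 and 80 min (limma, adjusted p under 0.1). The values are the difference at 80 min minus that at 60 min, on the scale log2(normalized count + 1). Among MBF targets, the change was 1.68 for *cdt2*, 1.21 for *cdc18*, 1.16 for *cdt1*, 0.88 for *ctp1*, 0.68 for *ams2*, 0.64 for *yox1*, 0.63 for *cig2* and 0.53 for *tos4*. For *cdc10*, the common MBF subunit, it was 0.42 (adjusted p = 0.0907). Outside the MBF lists it was 1.10 for the translesion polymerase gene *rev1* and 0.64 for the cohesin gene *psm3*. In the other direction it was -0.53 for *cdc2*, -0.58 for *bst1*, -0.62 for *prz1*, -1.03 for SPCC737.04 and -4.58 for SPAC186.03, whose values rest on a few reads in each library.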

How the results depend on the processing

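Of 148 named differences called, edgeR kept 148, and 45 were lost when some replicate was left out. edgeR also called more features than limma, with 646 lower and 728 higher at 60 min and 652 and 561 at 80 min. DESeq2 gave no adjusted p at either time for SPNCRNA.3335, SPNCRNA.5234, SPNCRNA.4497, SPNCRNA.6641, SPAC186.03 and *pma2*. Over 3610 alternative values of named genes, 3397 kept direction and side of the threshold, 146 fell short of it, 60 passed it and 7 reversed. All 7 reversed with the highest value from 40 to 100 min in each culture. That setting gives 1 difference per gene, which stands in for both times. Against the differences at 60 min it was 0.029 for *suc22*, 0.083 for *cdc10* and -3.17 for SPAC186.03. It was also -0.51 for SPCC737.04, -0.48 for *prz1* and -0.022 for *cdc2*. Against the difference at 80 min it was -0.50 for *cig2*. Apart from *cdc10*, these genes had differences of opposite sign at 60 and 80 min, so 1 value can match only 1 of them. Beyond this, the cause was not tested.

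A change of at least 2-fold left 57 lower (9 MBF targets) and 74 higher features at 60 min, 48 (3 MBF targets) and 61 at 80 min, 23 and 35 at both times, 2 and 4 for the change from 60 to 80 min, and 200 and 26 for the change from asynchronous growth. For the change from 60 to 80 min, an adjusted p under 0.05 left 4 lower features, and the replicate block gave 14. For the change from asynchronous growth, lower features numbered 212 with a mean of at least 50, 223 with only the libraries compared, 116 with edgeR, 86 with DESeq2 and 99 against 0 min, and higher ones 114 with edgeR, 85 with DESeq2 and 116 against 0 min. With each replicate left out, the counts ranged over 247 to 304 lower and 339 to 406 higher at 60 min, 263 to 505 and 221 to 310 at 80 min, 131 to 200 and 111 to 156 at both times, 2 to 12 and 6 to 10 for the change from 60 to 80 min, and 158 to 475 and 82 to 227 for the change from asynchronous growth. MBF targets ranged over 16 to 16 at 60 min and 11 to 15 at 80 min. The share of higher calls at 60 min was 59.4%, and 68.0% with TMM; at 80 min it was 48.0%, and 33.6% with CPM scaling.

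The replicate block gave 481 lower and 706 higher features at 60 min and 526 and 488 at 80 min. Deviations of same-numbered libraries of the strains correlated at 0.12 at 60 and 80 min and at -0.11 in asynchronous cultures over 5356 features. The numbers were therefore not taken to pair libraries between strains. Within a strain, deviations at 60 and 80 min correlated at 0.11 in Nrm1-SA and 0.20 in Nrm1. Single cultures were followed over time by these numbers, and a culture effect was fitted only as an alternative. Each group held 2 libraries, which limits the precision of every difference.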
